A study of Mus musculus with 9 samples.

Results

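The enzymes that break down tyrosine and tryptophan were followed in mouse liver as a group of 9 genes, chosen by symbol, out of 51912 genes listed: *Tat*, *Hpd*, *Hgd* and *Fah* of the tyrosine arm, and *Tdo2*, *Afmid*, *Kmo*, *Kynu* and *Haao* of the tryptophan arm. Each of the 9 symbols matched a single gene, and all 9 passed the filter on low values. RNA was sequenced from livers of 5 mice given an antisense oligonucleotide against apoC-III (apoC-III ASO) and of 4 mice given a control ASO. The ASO, a short synthetic strand that directs the cell to degrade a matching messenger RNA, was the only labelled difference between the groups. All 9 mice were *Apoe*-/- *Ndst1* f/f *Alb-Cre*+. They lacked apoE in every cell, and *Ndst1*, an enzyme of heparan sulfate synthesis, was deleted where the albumin promoter drives Cre, which is in hepatocytes, so the control ASO livers carried the same deletions and were not wild type. The mice had been fasted, and their diet, age and sex are not given in the sources used here.

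Tyrosine and tryptophan are broken down mainly in hepatocytes. In the tyrosine arm, tyrosine aminotransferase (*Tat*) removes the amino group, hydroxyphenylpyruvate dioxygenase (*Hpd*) makes homogentisate, homogentisate dioxygenase (*Hgd*) opens its ring, and fumarylacetoacetate hydrolase (*Fah*) releases fumarate and acetoacetate. In the tryptophan arm, tryptophan dioxygenase (*Tdo2*) opens the indole ring, arylformamidase (*Afmid*) makes kynurenine, kynurenine monooxygenase (*Kmo*) hydroxylates it, kynureninase (*Kynu*) makes hydroxyanthranilate, and hydroxyanthranilate dioxygenase (*Haao*) opens that ring on the way to quinolinate and NAD. *Tat* and *Tdo2*, the entry steps, are classical targets of glucocorticoids, and *Tat* is also known to respond to glucagon and fasting and to vary over the day.

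*Apoc3*, the target of the ASO, was measured first. Its level was 379, 431, 334, 623 and 486 in apoC-III ASO replicates 1 to 5, and 3372, 3170, 3481 and 4293 in control ASO replicates 1 to 4. Levels throughout are rescaled TPM, that is, TPM (transcripts scaled to a fixed total) counted over nuclear protein-coding genes alone and then divided by a factor per liver that puts the median gene at the same level. The groups did not overlap, and the mean was 87.4% lower with the apoC-III ASO (log2 fold change -3.01, SE 0.23, adjusted p = 3.83e-04 by limma). An exact two-sided permutation test gave p = 0.0159, the smallest that 5 against 4 livers allow. Control ASO replicate 4 stood apart from the other livers. Nuclear protein-coding genes held 1.94% of its deposited TPM against 3.03% to 8.64% in the others, its factor was 0.496 against 0.930 to 1.44, and limma gave it the lowest array weight (0.3493). It is therefore named wherever a value rests on it. TPM keeps no read depth, so no counting error could be set beside a single liver.

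The promoters of *Tat* and *Tdo2*, the entry enzymes of the arms, are shown with that of *Haao*, the enzyme that varied least within groups. The levels of *Tat* and *Tdo2* correlated over the 9 livers, but no pair of enzymes passed the adjusted threshold without control ASO replicate 4. RefSeq windows (GRCm38.p6) run from 250 bases before to 50 bases after the RefSeq start, and 8 of the 9 enzymes had one, all but *Kynu*. The windows of *Tdo2* and *Haao* lie wholly inside the gene bounds given for them below, which begin farther upstream. That of *Tat* spans the start of its gene bounds. Each is written 5′ to 3′ on the strand of its gene, with CCAAT, the core of a common promoter element, in capitals in either orientation (CCAAT or ATTGG).
*Tat*, chr8:109990186-109990485, plus strand: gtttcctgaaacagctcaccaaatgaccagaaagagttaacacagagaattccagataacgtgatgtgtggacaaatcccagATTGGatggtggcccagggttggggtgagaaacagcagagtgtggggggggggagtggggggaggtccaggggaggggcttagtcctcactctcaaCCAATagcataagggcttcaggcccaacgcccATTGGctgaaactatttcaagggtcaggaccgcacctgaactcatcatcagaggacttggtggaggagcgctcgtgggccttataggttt
*Tdo2*, chr3:81975679-81975978, minus strand: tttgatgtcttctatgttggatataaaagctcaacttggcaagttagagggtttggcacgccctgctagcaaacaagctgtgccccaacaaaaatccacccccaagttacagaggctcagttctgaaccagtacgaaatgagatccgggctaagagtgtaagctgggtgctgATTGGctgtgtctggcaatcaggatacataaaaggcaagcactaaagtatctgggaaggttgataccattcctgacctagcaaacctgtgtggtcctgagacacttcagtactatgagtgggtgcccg
*Haao*, chr17:83846741-83847040, minus strand: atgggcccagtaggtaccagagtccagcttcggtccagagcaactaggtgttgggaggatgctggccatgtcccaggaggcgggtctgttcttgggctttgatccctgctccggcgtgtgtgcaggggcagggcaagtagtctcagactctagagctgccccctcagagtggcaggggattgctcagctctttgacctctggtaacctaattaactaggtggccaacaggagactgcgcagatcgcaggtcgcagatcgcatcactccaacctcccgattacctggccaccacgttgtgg
The letters CCAAT were found 3 times in the *Tat* window, 1 time in that of *Tdo2*, and not in that of *Haao*, whose GC content was 58.7% against 53.7% for *Tat* and 47.7% for *Tdo2*. On either strand, CCAAT was in 3 of the 8 windows (*Hgd*, *Tat* and *Tdo2*) and in 37.4% of all 32851 RefSeq windows. The GC box letters GGGCGG were in 3 of the 8 (*Afmid*, *Fah* and *Hpd*) and in 35.7% of all windows, and TATAAA was in 2 (*Hgd* and *Tdo2*) and in 13.6%. The spaced letters ACANNNTGT, the core of a glucocorticoid response element, were in 1 of the 8 (*Tdo2*) and in 6.85% of all windows. Neither CACGTG, the E-box of clock factors, nor TTANGTAA, a site of DBP and its relatives, was found in the 8 windows, and they were in 7.15% and 2.32% of all windows. No motif contains another, and a match describes the sequence alone.

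The first comparison asked whether the apoC-III ASO moved this pathway in the liver. No enzyme of either arm passed the test. Of the 9, 0 were called in limma, which took a change over 1.5-fold with an adjusted p under 0.05, where 2 of 11954 genes tested were (0.0167%), namely *Apoc3* and *Anpep*, an aminopeptidase. At an unadjusted p under 0.05, 1 of the 9 (*Haao*) stood against 665 genes (5.56%). None of the 9 had groups without overlap, against 219 genes (1.83%). The level was lower with the apoC-III ASO in 8 of 9 enzymes, all but *Kynu*, with a median log2 fold change of -0.23, beside 50.2% of all genes and a median of -0.00122. That count moved with 1 liver and with the scaling. Without control ASO replicate 4, 2 of the 9 were lower and the median was 0.0427. On TPM as deposited 2 were lower, where the median of all genes was at 0.11 and 6 of the 9 lay below it. With protein-coding rescaling but no factors 0 were lower, where the median of all genes was at 0.41 and 7 of the 9 lay below it. In bulk liver, fewer hepatocytes and less RNA per hepatocyte cannot be told apart.

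**Figure D1:**
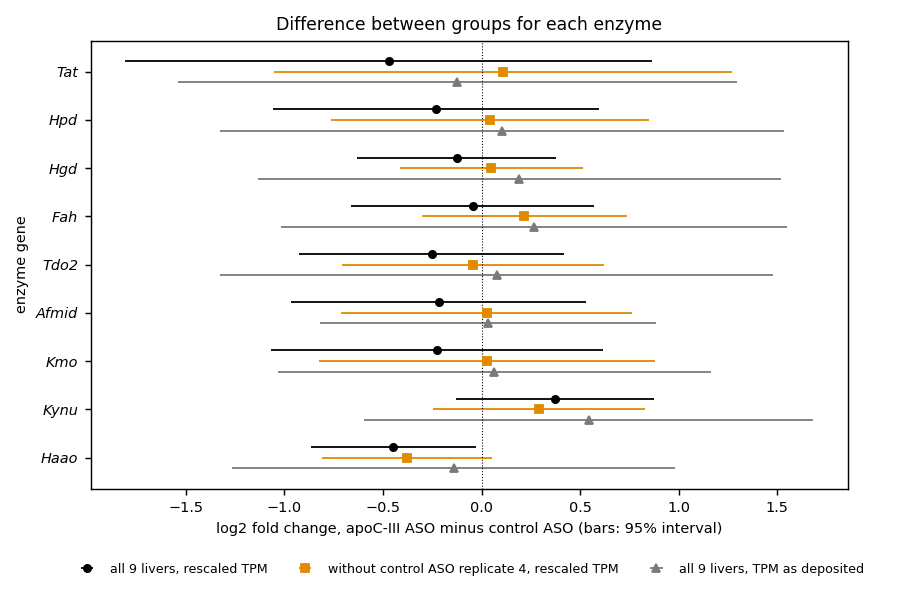
Log2 fold change (apoC-III ASO minus control ASO, with its 95% interval) of each enzyme gene in all 9 livers, without control ASO replicate 4, and on TPM as deposited. For 8 of the 9 enzymes the interval of the 9 livers spans 0, and for *Haao* it runs from -0.87 to -0.0302 and spans 0 in the other 2 settings.

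In the tyrosine arm, *Tat* (ENSMUSG00000001670, chr8:109990437-109999803, plus strand, GRCm38) varied most of the 9 enzymes. Its level was 731, 636, 346, 2271 and 1617 in apoC-III ASO replicates 1 to 5, and 804, 783, 923 and 4174 in control ASO replicates 1 to 4. ApoC-III ASO replicates 4 and 5 and control ASO replicate 4 were high, and the apoC-III ASO group enclosed 3 of the 4 controls. Within the apoC-III ASO group the highest liver was 6.56 times the lowest, and within the control group 5.33 times, or 1.18 times without replicate 4. The within-group SD of *Tat* on the log2 scale was 1.12, and 96.6% of genes tested varied less. The means were 1120 ± 799 (SD, n = 5) with the apoC-III ASO and 1671 ± 1670 (SD, n = 4) with the control ASO. Between groups the log2 fold change was -0.47 ± 0.61 (SE), with a 95% interval of -1.81 to 0.87 and an adjusted p of 0.959, and 0.11 without control ASO replicate 4. On TPM as deposited, the same control liver was the lowest of its group for *Tat*, at 40.2 against 48.7 to 64.6. The place of that liver thus turned with the scale.

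*Hpd* (ENSMUSG00000029445, chr5:123171807-123182727, minus strand), which takes the product of *Tat* to homogentisate, had the highest median of the 9. Its level was 1456, 1083, 1024, 1755 and 3290 with the apoC-III ASO (replicates 1 to 5), and 1329.6, 1666, 1577 and 3246 with the control ASO (replicates 1 to 4). ApoC-III ASO replicate 5 and control ASO replicate 4 were about level at the top, and the groups overlapped throughout. The log2 fold change was -0.23 ± 0.38 (SE), with an adjusted p of 0.967. *Hpd* lies within *Psmd9*, a proteasome assembly gene on the opposite strand, whose level ran from 18.0 to 63.6 over the 9 livers. The libraries were stranded, but whether the quantification behind the TPM used strand is not stated in the sources used here.

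*Hgd* (ENSMUSG00000022821, chr16:37580153-37632020, plus strand), the enzyme lost in alkaptonuria, varied less. Its level was 405, 341, 484, 516 and 424 with the apoC-III ASO, and 444, 372, 434 and 674 with the control ASO, in replicate order. Only control ASO replicate 4 lay outside the range of the apoC-III ASO livers. For *Hgd* the log2 fold change was -0.12 ± 0.23 (SE), with an adjusted p of 0.974.

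*Fah* (ENSMUSG00000030630, chr7:84585159-84606722, minus strand), the last step of the arm and the enzyme lost in hereditary tyrosinemia, was the closest of the 9 to no difference. Its level was 378, 366, 258, 291 and 440.3 with the apoC-III ASO, and 305, 245, 336 and 606 with the control ASO. Control ASO replicate 2 was lowest and replicate 4 highest, so the controls enclosed every apoC-III ASO liver. The log2 fold change was -0.0445 (SE 0.28, 95% interval -0.66 to 0.57), and 0.22 without control ASO replicate 4.

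**Figure D2:**
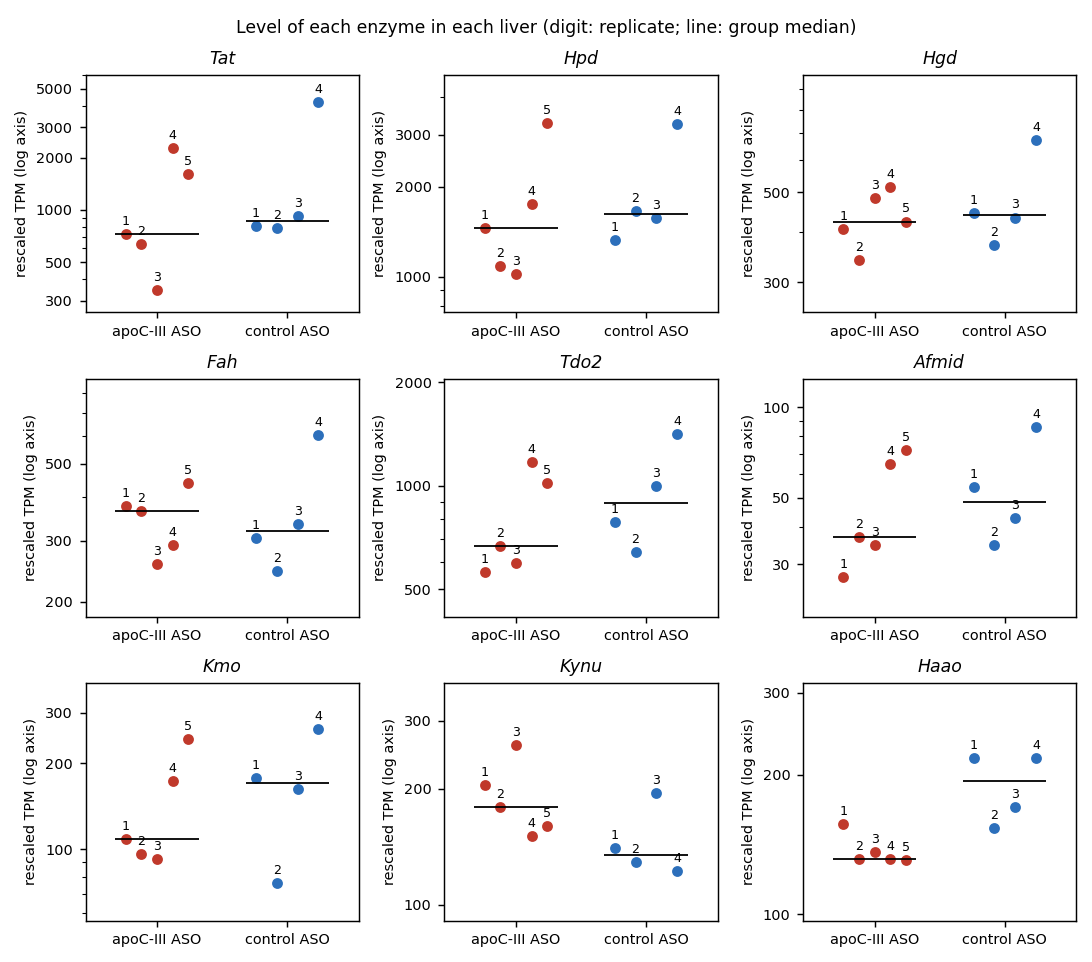
Rescaled TPM (log axis) of each enzyme gene in each liver by ASO group, with 1 point per liver, the replicate as a digit and the group median as a line. Control ASO replicate 4 is the highest of the 9 livers for 6 enzymes and the lowest for *Kynu*, and the *Haao* levels of the apoC-III ASO livers lie close together, from 131 to 156.4.

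In the tryptophan arm, *Tdo2* (ENSMUSG00000028011, chr3:81957090-81976202, minus strand), the entry enzyme, was 563, 670.3, 597, 1176 and 1021 in apoC-III ASO replicates 1 to 5, and 783, 642, 999 and 1412 in control ASO replicates 1 to 4. As for *Tat*, apoC-III ASO replicates 4 and 5 and control ASO replicate 4 were the 3 highest livers. The means were 806 ± 276 (SD, n = 5) and 959 ± 336 (SD, n = 4). The log2 fold change was -0.25 ± 0.31 (SE), with a 95% interval of -0.92 to 0.42 and an adjusted p of 0.953, and -0.0455 without control ASO replicate 4.

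*Afmid* (ENSMUSG00000017718, chr11:117825924-117839908, plus strand), the formamidase that yields kynurenine, had the lowest levels of the 9. They were 27.2, 37.0, 34.8, 64.5 and 72.0 with the apoC-III ASO, and 54.2, 34.7, 42.7 and 85.9 with the control ASO. The same 3 livers were again the highest, and the groups overlapped (log2 fold change -0.22, SE 0.34, adjusted p = 0.966). *Afmid* overlaps *Tk1*, a thymidine kinase gene on the opposite strand, at its start, and *Gm20708*, a readthrough gene on its own strand that was at 1.21 to 11.4, so reads may be split between them.

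*Kmo* (ENSMUSG00000039783, chr1:175620381-175662116, plus strand), which commits kynurenine to the branch towards NAD, was 109, 96.3, 92.4, 173 and 243 with the apoC-III ASO, and 178, 76.0, 162 and 263 with the control ASO. Control ASO replicate 2 was the lowest liver and replicate 4 the highest, and the log2 fold change was -0.23 ± 0.38 (SE), with an adjusted p of 0.969. *Kmo* overlaps *Fh1*, fumarate hydratase, on the opposite strand. *Fh1* was at 325, 323 and 547 in apoC-III ASO replicates 4 and 5 and control ASO replicate 4, and at 94.8 to 186 in the other 6 livers. Its part in the *Kmo* values was not tested.

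*Kynu* (ENSMUSG00000026866, chr2:43555329-43682715, plus strand), whose product is the substrate of *Haao*, was, on this scale and with all 9 livers, the only enzyme with a higher mean level in the apoC-III ASO group. Its level was 204, 179, 259.8, 150.5 and 160.1 with the apoC-III ASO, and 140.1, 129, 195 and 122 with the control ASO. ApoC-III ASO replicate 3 was highest and control ASO replicate 4 lowest, and control ASO replicate 3 lay among the apoC-III ASO livers, so the groups overlapped. The means were 191 ± 43.7 (SD, n = 5) and 147 ± 33.2 (SD, n = 4). *Kynu* had a log2 fold change of 0.37 ± 0.23 (SE), with a 95% interval of -0.13 to 0.88 and an adjusted p of 0.900, and 0.29 without control ASO replicate 4.

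*Haao* (ENSMUSG00000000673, chr17:83831156-83847963, minus strand) had the largest difference relative to its spread. Its level was 156.4, 132, 136, 132 and 131 in apoC-III ASO replicates 1 to 5, and 217, 153.6, 170.2 and 217 in control ASO replicates 1 to 4. The 5 apoC-III ASO livers were tightly grouped, and the highest of them (replicate 1) was just above the lowest control (replicate 2), which was the only overlap. The means were 137 ± 10.8 (SD, n = 5) and 189.6 ± 32.7 (SD, n = 4), a mean 27.5% lower with the apoC-III ASO. The within-group SD was 0.18 on the log2 scale, and 2.64% of genes tested varied less. The log2 fold change was -0.45 (SE 0.19, 95% interval -0.87 to -0.0302). The unadjusted p of limma was 0.0377, an exact two-sided permutation test gave 0.0317, and over all genes the adjusted p was 0.878. *Haao* therefore did not pass the test. With protein-coding rescaling but no factors its log2 fold change was 0.0283, which was -0.38 relative to the median of all genes under that scaling. Without control ASO replicate 4 its log2 fold change was -0.38, with an unadjusted p of 0.0799 in limma. Of the 9 fits that left out 1 liver, the unadjusted p stayed under 0.05 in 3, those without apoC-III ASO replicate 1, control ASO replicate 2 or control ASO replicate 3.

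TPM is corrected for gene length, so the levels of the 9 enzymes can be set in order. The median over the 9 livers was 1577 for *Hpd*, 804 for *Tat*, 783 for *Tdo2*, 434 for *Hgd*, 336 for *Fah*, 162 for *Kmo*, 160.1 for *Kynu*, 153.6 for *Haao* and 42.7 for *Afmid*. The entry enzymes of both arms and *Hpd* were thus the most abundant, and the kynurenine enzymes the least. Neighbours in this order were not all apart. *Tdo2* was above *Hgd*, *Fah* above *Kmo*, and *Haao* above *Afmid* in 9 of 9 livers, while *Tat* was above *Tdo2* in 6, *Kynu* above *Haao* in 6, and *Kmo* above *Kynu* in 4. *Hpd* was above *Tat* in 7 livers and *Hgd* above *Fah* in 7.

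Livers of 1 group differed widely from each other. In control ASO replicate 4 the median enzyme was 0.81 log2 units above its mean over the 9 livers, and in apoC-III ASO replicates 4 and 5 it was 0.21 and 0.35 above. It was -0.21, -0.34 and -0.42 in apoC-III ASO replicates 1 to 3, and -0.0884, -0.37 and -0.0403 in control ASO replicates 1 to 3. The median over all genes lay between -0.00773 and 0.00657 in each liver. The factors set that median near 0, so it does not show that the enzymes stand apart from other genes. The summed level of the 9 enzymes ran from 3233 to 7398 with the apoC-III ASO and from 4101 to 10800.1 with the control ASO, where the highest sum was that of replicate 4. Both the median departure and the sum of control ASO replicate 4 rest on its factor of 0.496. On TPM as deposited, that liver was the lowest control for every enzyme.

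Pearson's r and Spearman's rho of log2(rescaled TPM + 1) were taken over the 9 livers for all 36 pairs of enzymes, with exact permutation p-values adjusted over the 36. The r was positive in 28 pairs, and all 8 negative ones held *Kynu*. It passed an adjusted p under 0.05 in 7 pairs. *Tat* and *Tdo2*, in different arms, had r = 0.91 (exact permutation, adjusted p = 0.00714) and rho = 0.92 (adjusted p = 0.0236). *Tdo2* and *Afmid* had r = 0.92 and rho = 0.95, *Afmid* and *Kmo* r = 0.90 and rho = 0.88, and *Tat* and *Hpd* r = 0.85 and rho = 0.87, and both measures passed in these 4 pairs. The other 3 pairs were *Tat* with *Afmid* (r = 0.85, rho = 0.83), *Tdo2* with *Kmo* (r = 0.87, rho = 0.80) and *Tat* with *Kmo* (r = 0.80, rho = 0.82). Leaving out the 2 livers farthest from the median of the first gene left r between 0.68 and 0.90 in the 7 pairs. Leaving out control ASO replicate 4 alone left 24 positive pairs, and of the 36 pairs 0 passed the adjusted threshold and 7 had an unadjusted exact permutation p under 0.05, so the calls rest on that liver. *Kynu* was farthest from *Tat* (r = -0.70, exact permutation, adjusted p = 0.0868). Each liver's factor enters every gene, so these correlations share the scaling.

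**Figure D3:**
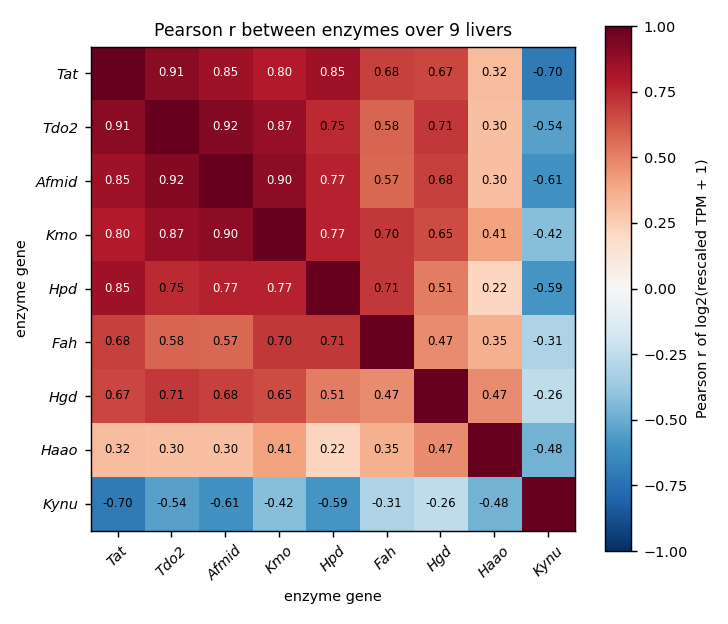
Pearson's r of log2(rescaled TPM + 1) over the 9 livers for every pair of the 9 enzyme genes, from blue (negative) to red (positive). *Tat*, *Tdo2*, *Afmid*, *Kmo* and *Hpd* form a block of positive r, up to 0.92, *Haao* is weakly related to the others, and every r of *Kynu* is negative, down to -0.70.

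Genes of the circadian clock differed between the same livers. *Arntl*, which drives the clock, was 17.7, 11.1, 30.9, 0.74 and 2.75 in apoC-III ASO replicates 1 to 5, and 0.32, 1.06, 1.11 and 2.46 in control ASO replicates 1 to 4. *Dbp*, an output gene of the clock, was 2.92, 22.2, 2.70, 152 and 97.7 with the apoC-III ASO, and 103, 78.1, 100.5 and 68.2 with the control ASO. *Per2*, a repressor within the clock, was 3.35, 8.31, 4.81, 25.1 and 40.5 with the apoC-III ASO, and 88.1, 129.7, 83.7 and 12.1 with the control ASO. ApoC-III ASO replicates 1 to 3 had high *Arntl* and low *Dbp*, while replicates 4 and 5 were nearer to the controls. Those first 3 livers also had the lowest *Tat* of all. Control ASO replicates 1 to 3, where *Dbp* was high, had *Tat* at 804, 783 and 923, not far above the 731 of apoC-III ASO replicate 1. Control ASO replicate 4, with the lowest *Dbp* and *Per2* of its group, had the highest *Tat* (4174). Of 14 clock genes tested, 10 were lower with the apoC-III ASO, 0 were called and 4 had an unadjusted limma p under 0.05, with a median log2 fold change of -0.31. Of all genes tested, 50.2% were lower and 5.56% had such a p. *Pck1*, the gluconeogenic enzyme that fasting raises, picked after its values were seen, was 1503, 1422, 839, 3165 and 2755 with the apoC-III ASO, and 1769.6, 1699.9, 1738 and 3109 with the control ASO. Its 3 highest livers were those of *Tat* and *Tdo2*, a pattern that 2 of the 14 hormone- and fasting-responsive genes had (*Pck1* and *Igfbp1*). The share of all genes with that pattern is not given here. Without the factors, control ASO replicate 4 would not be among the 3 highest livers for *Pck1* or *Tdo2*. *G6pc*, the glucose-6-phosphatase, was highest in control ASO replicate 4 and apoC-III ASO replicates 1 and 4 (759, 417 and 415). The part of the clock or of fasting in the enzyme values was not tested.

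**Figure D4:**
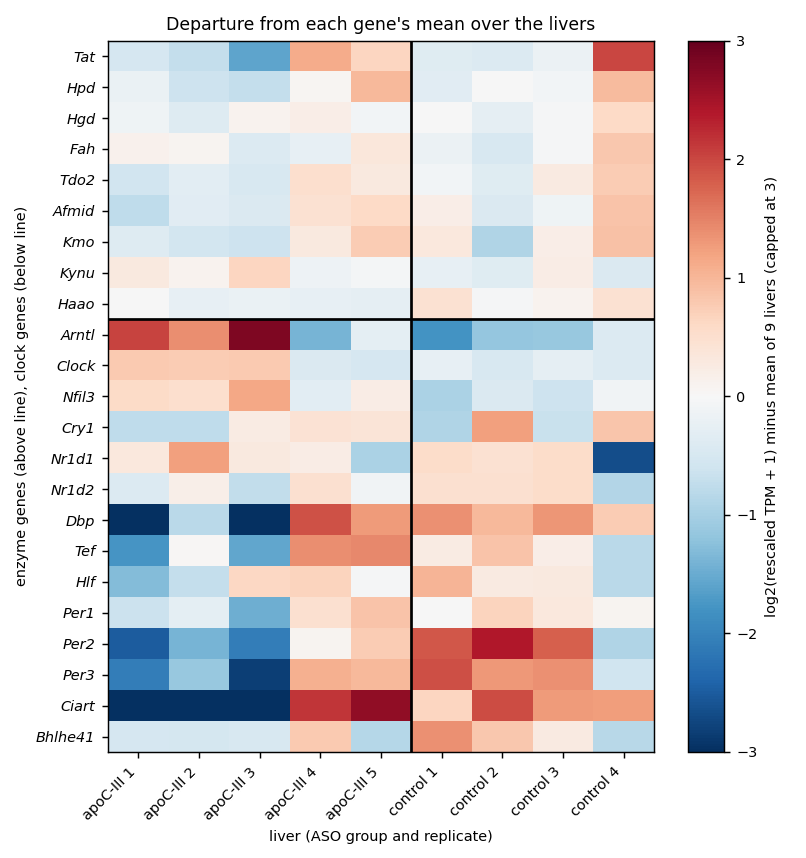
Departure of log2(rescaled TPM + 1) from each gene's mean over the 9 livers (red above, blue below, colours capped at 3) for the 9 enzyme genes above the line and 14 clock genes below it, by liver. ApoC-III ASO replicates 1 to 3 are low for *Tat* and *Dbp* and high for *Arntl*, and control ASO replicate 4 is red for most enzymes.

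The gene whose pattern over the 9 livers was most like that of each enzyme was sought among 6527 genes with a mean of at least 10, as a description. The highest r of so many genes over 9 livers is high by selection alone. These genes also share each liver's factor, so the values show no link between genes. The closest were *Ptp4a1* to *Tat* (r = 0.97), *Suclg1* to *Hpd* (r = 0.97), *Kif1c* to *Hgd* (r = 0.98) and *Adarb1* to *Fah* (r = 0.94). For the tryptophan arm they were *Sult1d1* to *Tdo2* (r = 0.97), *Dmgdh* to *Afmid* (r = 0.97), *Acot8* to *Kmo* (r = 0.96), *Ikbkg* to *Kynu* (r = 0.96) and *Oat* to *Haao* (r = 0.92). *Oat*, the ornithine aminotransferase, was 208.5, 154, 149.5, 191 and 170.1 with the apoC-III ASO, and 369.9, 278, 328 and 638 with the control ASO. Its groups did not overlap, and its log2 fold change was -1.14 ± 0.26 (SE), with an adjusted p of 0.647, which did not pass the test.

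Around the 9 enzymes, 22 of 25 genes of the other steps of aromatic amino acid breakdown and its cofactors were tested. Of these 11 were lower and 11 higher with the apoC-III ASO, 0 were called, 1 had an unadjusted limma p under 0.05, and the median log2 fold change was -0.0128. *Acmsd*, which draws the product of *Haao* away from NAD, was at 4.26 to 10.3 with the apoC-III ASO and at 8.05 to 18.3 with the control ASO (log2 fold change -0.74, SE 0.34, adjusted p = 0.878). *Pcbd2*, which recycles a pterin cofactor, had the smallest p of the list, with a log2 fold change of 0.57 ± 0.26 (SE) and an adjusted p of 0.878, and *Il4i1*, an amino acid oxidase, had one of -0.59 (SE 0.39). *Ido1*, the tryptophan dioxygenase of cells outside the liver parenchyma, was listed at 0 in every liver.

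Downstream, 7 of 8 genes of NAD synthesis were tested, of which 4 were lower, 0 were called and 1 had an unadjusted limma p under 0.05, with a median log2 fold change of -0.0787. That gene was *Nmnat1*, which joins the nucleotide to adenylate, with a log2 fold change of 0.53 ± 0.24 (SE) and an adjusted p of 0.878. *Nampt*, the enzyme of NAD salvage, was at 16.3, 21.8, 11.4, 64.2 and 69.9 with the apoC-III ASO, and at 45.9, 34.4, 41.8 and 45.8 with the control ASO, again low in apoC-III ASO replicates 1 to 3 (log2 fold change -0.53, SE 0.48). *Nadsyn1*, the last step of the route from tryptophan, had a log2 fold change of 0.20 (SE 0.23). Upstream, 5 of 7 transporters of aromatic amino acids were tested, of which 2 were lower, 0 were called and 0 had an unadjusted limma p under 0.05, and the median was 0.0901. The smallest p-values among them were those of *Slc43a2* (log2 fold change 0.40), *Slc43a1* (-0.33) and *Slc38a4* (-0.19).

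Markers showed liver in all 9 samples. Of 10 hepatocyte markers, 9 matched by symbol and were tested, and their summed level was 30123 to 66534.5 with the apoC-III ASO and 46468 to 49708 with the control ASO. Of the 9, 7 were lower, 1 of them (*Serpina1c*, log2 fold change -0.82, adjusted p = 0.864) had an unadjusted limma p under 0.05, and 0 were called. Of all genes tested, 50.2% were lower and 5.56% had such a p. Of 5 kidney tubule markers 0 passed the filter, and *Umod*, *Slc12a1* and *Aqp2* were listed at 0 in every liver. Stellate cell markers summed to 118 to 144 with the apoC-III ASO and to 134 to 256 with the control ASO, with the top in replicate 4. Of the 6 tested, 5 were lower (50.2% of all genes were), 0 were called and 2 (*Lrat* and *Dcn*) had an unadjusted limma p under 0.05 (5.56% of all genes did). *Lrat*, which stores vitamin A, was the only one without overlap, as were 1.83% of all genes (log2 fold change -0.89, against -0.57 for *Dcn* and -0.75 for *Col1a1*). *Apoa1* had a log2 fold change of -0.34 among the hepatocyte markers. Among markers of Kupffer cells (7 tested), sinusoidal endothelium (6), leukocytes (3 of 6) and cholangiocytes (3 of 6), 0 were called and 0 had an unadjusted limma p under 0.05. The smallest p-values belonged to *Marco* (log2 fold change 0.67), *Cd68* (0.31) and *Cd5l* (0.14) of Kupffer cells, and to *Lyve1* (0.52), *Clec4g* (0.50) and *Kdr* (-0.16) of endothelium. Of the leukocyte markers, *Ptprc* had a log2 fold change of -0.27 and *Ly6c2* one of -0.22, and for cholangiocytes the smallest p-values were those of *Sox9* (0.47), *Krt19* (-0.36) and *Spp1* (-0.13). In control ASO replicate 4, where most of the enzymes were highest, the hepatocyte and cholangiocyte sums were the highest of the controls and the sinusoidal endothelial sum (79.4) the lowest. *Spp1* made up 116 of its cholangiocyte sum of 120.7, while *Krt19* was 2.11 there and 2.18 in control ASO replicate 2. Every sum of control ASO replicate 4 rests on its factor of 0.496, against 0.930 to 1.16 in the other controls. Without the factors its hepatocyte sum would be the lowest of the controls. The part of cell makeup in the enzyme values was not tested.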

How the data were processed

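RNA had been sequenced from 9 livers, 1 per mouse, as single-end reads of stranded, ribosomal RNA-depleted libraries. The authors deposited TPM per gene. The submitters' processing notes name kallisto 0.43.1 and GRCm38, whereas the methods of the study name STAR, featureCounts and DESeq2 for its own test, and those counts were not used here. Signal recognition particle RNA genes (*Rn7s1* and *Rn7s2*) held 64.0% to 83.6% of each liver's TPM, so the TPM of the 21780 nuclear protein-coding genes (GENCODE M21, GRCm38) were rescaled to 1000000 and divided by median-of-ratios factors over 12256 genes. TPM as deposited was an alternative. Of 51912 identifiers, 51633 were in GENCODE M21.

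Groups were compared with limma 3.58.1 in R 4.3.3 (lmFit, eBayes with trend) on log2(rescaled TPM + 1) for the 11954 genes with a mean of at least 1, without covariates and with Benjamini-Hochberg adjustment. A gene was called at an adjusted p under 0.05 and over 1.5-fold. Fold changes are on this log2 scale, so those of low genes are understated. The fit was tested on simulated data. There each gene's departures were shuffled over the livers separately, so shifts shared by a whole liver were not simulated. Exact permutation tests were two-sided. Named genes were the 9 enzymes, *Apoc3*, the 3 smallest p-values and any called gene of each of 14 lists, and the gene closest to each enzyme. *Pck1*, *G6pc*, *Igfbp1*, *Anpep*, the genes that overlap enzymes and marker genes listed at 0 were added, and some genes of the lists are not reported here. The enzymes, lists, scaling and tests were chosen with earlier results of these data known. Alternatives were other scalings, pseudocounts of 0.1 and 0.5, filters, eBayes options, array weights, a replicate block and each liver left out. Permutations ran in scipy 1.17.1 (Python 3.11.15, with pandas 2.3.3 and numpy 2.4.6), and plots were drawn with matplotlib 3.10.9.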

Additional observations from a re-analysis of the deposited data

Results flagged for a closer look

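Of 20 groups of livers examined (the 9 enzymes and *Apoc3* in each ASO group), 2 held a liver far from the others of its group by Dixon's criterion, which chance gives in about 1 of 20 groups. *Tat* was 4174 rescaled TPM in control ASO replicate 4, against 783 to 923 in the other 3 controls. *Haao* was 156.4 in apoC-III ASO replicate 1, against 131 to 136.5 in the other 4 livers of its group, and this liver is the one that overlaps the controls.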

How the results depend on the processing

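No enzyme was called under any of the 23 settings, with adjusted p-values of 0.450 to 0.9997. On TPM as deposited, 2 enzymes were lower, 11 genes were called (5 higher, 6 lower), *Apoc3* had a log2 fold change of -2.62 (adjusted p = 0.104 in limma), 22 correlations passed, and the values turned to 0.10 (*Hpd*), 0.19 (*Hgd*), 0.27 (*Fah*), 0.0777 (*Tdo2*), 0.0317 (*Afmid*) and 0.0647 (*Kmo*), with 0.11 for the median gene. With protein-coding rescaling alone the median gene moved to 0.41, 0 enzymes were lower and 1 gene was called, and the values were 0.00838 (*Tat*), 0.25 (*Hpd*), 0.35 (*Hgd*), 0.43 (*Fah*), 0.23 (*Tdo2*), 0.25 (*Afmid*), 0.25 (*Kmo*) and 0.0283 (*Haao*). Relative to that median, 7 of the 9 enzymes were lower. Quantile normalization left 5 enzymes lower, with 0.0512 (*Hpd*), 0.0736 (*Hgd*) and 0.12 (*Fah*). Without a filter, and with eBayes without trend, 1 gene was called. Array weights gave *Fah* 0.10. On TPM as deposited without control ASO replicate 4, a setting chosen after seeing the data, 4 genes were called, *Kynu* was -0.0347 and 9 of 9 enzymes were lower, against 2 of 9 on rescaled TPM without that liver, with 83.8% of all genes lower and the median gene at -0.23. Leaving out each liver gave 1 to 3 genes called, 2 to 8 enzymes lower and 0 to 13 correlations (0 without control ASO replicate 4, 13 without control ASO replicate 2, 3 without apoC-III ASO replicate 2). The ranges were -0.80 to 0.11 (*Tat*), -0.50 to 0.0427 (*Hpd*), -0.24 to 0.0498 (*Hgd*), -0.22 to 0.22 (*Fah*), -0.40 to 0.0258 (*Afmid*) and -0.57 to 0.0256 (*Kmo*), and the positive ends came without control ASO replicate 4. The cause of these shifts was not tested. Livers of the same number did not deviate together (r 0.0264 to 0.191, 1 of 4 closest to its own number), and with a replicate block 3 genes were called, 0 enzymes among them, and 8 enzymes were lower. The enzymes with an unadjusted limma p under 0.05 were then *Tat* and *Kynu*, not *Haao*, and with protein-coding rescaling alone *Kynu*. With 9 livers and no read depth, small differences may have been missed. The simulated data held added changes of several sizes, but no shift shared by a whole liver. They therefore do not show how small a difference could be detected in these livers.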

Other observations

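Breakdown enzymes of other amino acids were measured in the same livers. Of 24 tested, 15 were lower with the apoC-III ASO, 0 were called, 4 had an unadjusted limma p under 0.05 (5.56% of all genes did), and the median log2 fold change was -0.12. In 2 of the 24 the groups did not overlap (1.83% of all genes), *Oat* and *Gldc*. *Gldc*, the glycine decarboxylase, was 32.8, 25.8, 40.5, 31.2 and 34.3 with the apoC-III ASO, and 18.8, 19.8, 16.7 and 11.3 with the control ASO, so every apoC-III ASO liver was above every control (log2 fold change 0.96, SE 0.22, adjusted p = 0.731). *Bckdhb*, a subunit of the branched-chain ketoacid dehydrogenase, had a log2 fold change of -0.68 (SE 0.28), with overlapping groups.

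Of 14 hormone- and fasting-responsive genes, 6 were lower, 0 were called and 1 had an unadjusted limma p under 0.05, with a median log2 fold change of 0.0404. That gene was *Dusp1*, a phosphatase gene induced by glucocorticoids and stress, at 37.1, 32.5, 10.8, 49.3 and 46.7 with the apoC-III ASO, and at 10.5, 11.05, 11.4 and 20.3 with the control ASO (log2 fold change 1.23, SE 0.40, adjusted p = 0.864). The metallothionein genes *Mt1* and *Mt2* split the controls. *Mt1* was 11.5 and 8.58 in control ASO replicates 1 and 2, 262 and 217 in replicates 3 and 4, and 4.61 to 37.1 with the apoC-III ASO. *Mt2* was 4.01, 4.55, 138 and 102 in the 4 controls and 3.32 to 24.2 with the apoC-III ASO. Control ASO replicate 3, high for both metallothioneins, was not high for *Tat*. Of 11 liver transcription factors, 5 were lower, 0 were called, 0 had an unadjusted limma p under 0.05 and the median log2 fold change was 0.000475. Besides *Dbp*, the smallest p-values were those of *Nr1i3*, a nuclear receptor (log2 fold change -0.46), and *Hnf4a*, a hepatocyte factor (0.40).

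*Nfil3*, the repressor that opposes *Dbp*, was 11.3, 10.7, 17.4, 5.72 and 8.68 with the apoC-III ASO, and 3.31, 5.13, 4.38 and 6.70 with the control ASO (log2 fold change 0.96, SE 0.30, adjusted p = 0.864). ApoC-III ASO replicate 3, the highest liver for *Nfil3* and *Arntl*, was also the lowest for *Tat* and the highest for *Kynu*.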
